A study of Mus musculus with 6 samples.

Results

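The interferon regulatory factors (IRFs) were followed as 8 genes, Irf1, Irf2, Irf3, Irf4, Irf5, Irf7, Irf8 and Irf9, chosen by symbol from the 54532 genes of the expression table. The RNA-seq data came from mouse aortic smooth muscle cells (MASMCs) in 2 groups of 3 libraries. The control group, labelled Ad-Con, is given the genotype WT and received an adenoviral vector with a control plasmid. The other group, labelled Ad-PDK4, is given as PDK4 overexpression and received an adenoviral vector with a PDK4 plasmid, PDK4 being the kinase that holds back pyruvate dehydrogenase. According to the study's methods the cells came from the abdominal aortas of mice, and all of them, controls included, had been exposed to angiotensin II (Ang II), a pressor peptide used to induce aneurysm, which the labels do not mention. Both groups therefore carried an adenovirus, and neither uninfected cells nor cells without Ang II were analysed here. The methods describe PDK4 cloned with an HA tag into a pEnCMV plasmid for lipid transfection, and do not say which promoter the adenoviral vector carried.

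IRFs are transcription factors that share a helix-turn-helix DNA-binding domain with a row of conserved tryptophans and read GAAA-containing elements. IRF3 and IRF7 are phosphorylated downstream of sensors of foreign nucleic acid and switch on interferon-β and interferon-α genes. IRF9 joins STAT proteins, STAT2 among them, in the complex ISGF3, which carries the type I interferon signal from the receptor to the interferon-stimulated response element. IRF1 serves the interferon-γ response and antigen presentation, IRF2 competes with it for the same sites, IRF5 drives inflammatory cytokines, and IRF4 and IRF8 belong mainly to lymphoid and myeloid cells.

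Each library held 17588942 to 21861872 reads assigned to genes. Pdk4, the gene that the vector was meant to raise, measured 9.50, 10.4 and 10.1 FPKM (fragments per kilobase of gene, scaled to library size) under the Ad-Con label. Under the Ad-PDK4 label it measured 7.67, 7.40 and 7.38 FPKM. The label and the transcript thus ran opposite ways (log2 difference -0.42 ± 0.06 SE, limma with Benjamini-Hochberg adjustment, adjusted p = 1.1e-03), so every direction below is that of the label and not of a measured rise in Pdk4. The primers that the study gives for cloning PDK4 into the pEnCMV plasmid are those that it lists for RT-PCR of mouse PDK4. Which PDK4 sequence the adenoviral vector carried is not given in the sources used here. Whether its reads were counted at mouse Pdk4 is not given either, and whether labels were exchanged was not tested. Controls below are the libraries labelled Ad-Con. The smooth muscle markers were incomplete: Acta2 stood at 78.0 ± 0.950 against 36.2 ± 2.40 FPKM, Cald1 at 56.0 ± 0.646 against 71.9 ± 2.82 and Smtn at 8.32 ± 0.114 against 8.44 ± 0.445 (SD, n = 3 each). Myh11, Tagln, Myocd and Cnn1 held at most 10, 20, 5 and 30 reads in any library. The fibroblast markers Col1a1 and Dcn stood at 1056 ± 42.4 against 435 ± 49.5 FPKM and 90.1 ± 8.20 against 161 ± 19.0 FPKM (SD, n = 3 each). Among 16 macrophage and dendritic markers, 8, including Ptprc, Itgam, Tyrobp and Itgax, held no read in any library. Others were present, such as Cd68 and Cd14 (14.2 ± 1.78 and 12.8 ± 0.182 FPKM in the controls, SD, n = 3 each). The study describes the 3 libraries of a group as biological replicates, but the labels do not say that they were separate cultures, so p-values measure the spread between these samples.

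In the libraries labelled Ad-PDK4, 5 of the 8 IRF genes were higher, led by Irf7 at 32.4 times its mean under the Ad-Con label. Irf5, Irf9 and Irf1 were 4.27, 3.0 and 2.57 times as high and Irf2 1.35 times. Irf3 was the exception among the expressed members, with group means of 11.5 and 11.6 FPKM, and Irf4 and Irf8 were barely detected. A fit across all 13423 genes with a mean of at least 0.5 FPKM took in 6 of the 8 members. Of these, 5 passed an adjusted p of 0.05 upward, 0 downward and 1 in neither direction, where 21.8% of all tested genes were higher, 20.8% lower and 42.7% either. With a fold of at least 2 required as well, 4 members were higher and 0 lower, where 3.95% of all tested genes were higher and 2.68% lower. The 3 libraries labelled Ad-PDK4 lay above all 3 others for 5 of the 6 tested members, as they did for 27.8% of all tested genes (26.5% lay below). The median log2 difference of the 6 tested members was 1.46, that of all tested genes -0.0031.

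**Figure D1:**
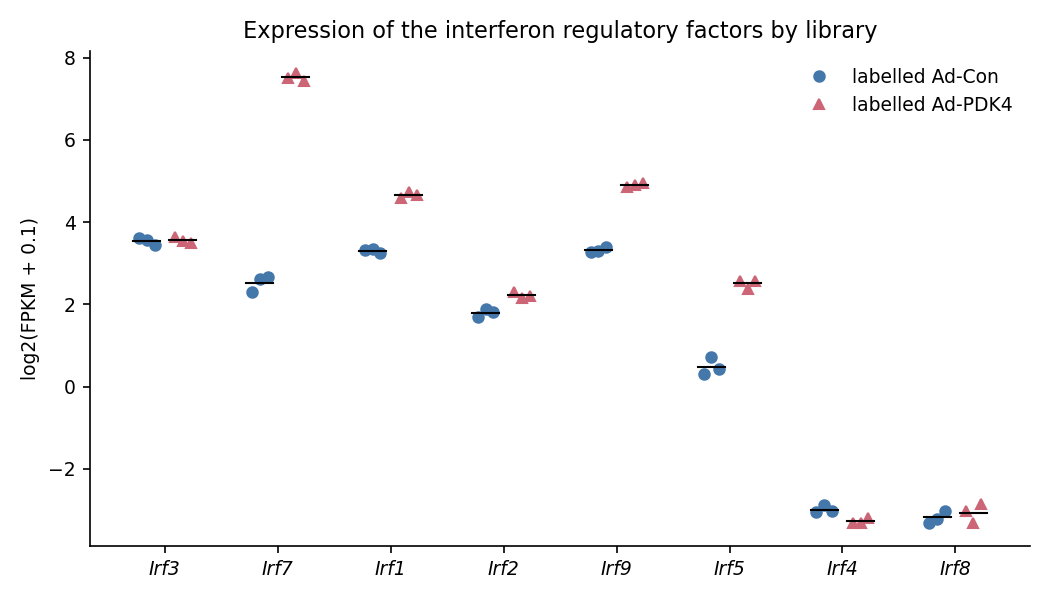
Expression of each IRF gene as log2(FPKM + 0.1), with 1 point per library, circles for Ad-Con and triangles for Ad-PDK4 by label, and a line at each group mean. The libraries labelled Ad-PDK4 lie above all libraries labelled Ad-Con for Irf7, Irf5, Irf9, Irf1 and Irf2, while the 2 groups overlap for Irf3 and hold next to no reads for Irf4 and Irf8.

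The factors that start interferon transcription, Irf7 and Irf3, parted. Irf7 (ENSMUSG00000025498, chr7:141262706-141266481, minus strand, GRCm38), the factor whose own induction amplifies the type I interferon response, measured 4.79, 6.0 and 6.28 FPKM among libraries labelled Ad-Con, against 183, 197 and 173 FPKM among those labelled Ad-PDK4. These values rest on 368, 398 and 430 reads against 12542, 12987 and 14462. The lowest library labelled Ad-PDK4 was 27.6 times the highest control, so the groups lay far apart. The log2 difference was 5.00 ± 0.10 (SE, 95% interval 4.76 to 5.24, limma adjusted p = 8.5e-08), the 27th largest rise among all tested genes.

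Irf3 (ENSMUSG00000003184, chr7:44997648-45002848, plus strand), which is made constitutively and activated by phosphorylation, measured 12.1, 11.7 and 10.8 FPKM among libraries labelled Ad-Con, against 12.3, 11.5 and 11.1 FPKM among those labelled Ad-PDK4. The highest value fell in one group and the lowest in the other, and the values between them interleaved. The log2 difference was 0.015 ± 0.07 (SE, limma adjusted p = 0.88). Its 95% interval, -0.14 to 0.17, contains no change as large as that of any of the 5 members that rose. Its sign turned under quantile normalization (-0.051) and when a single library of either group was left out, so no direction can be given for it.

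Irf9 (ENSMUSG00000002325, chr14:55603571-55610030, plus strand), the DNA-binding subunit of ISGF3, measured 9.58, 9.66 and 10.4 FPKM among libraries labelled Ad-Con, against 28.8, 29.6 and 30.7 FPKM among those labelled Ad-PDK4. Every library labelled Ad-PDK4 exceeded every control, the closest pair by 2.77 times. The log2 difference was 1.58 ± 0.06 (SE, 95% interval 1.45 to 1.71, limma adjusted p = 6.7e-07). Its partner Stat2, the transactivating subunit, went from 8.38 ± 0.187 to 52.1 ± 3.36 FPKM (SD, n = 3 each), a log2 difference of 2.62 ± 0.06 (SE, limma adjusted p = 9.6e-08). The log2 ratio of Irf9 to Stat2 FPKM was 0.22, 0.17 and 0.32 in the control libraries and -0.75, -0.82 and -0.85 in the others. On the linear scale Irf9 went from 1.18 times to 0.571 times the FPKM of Stat2. These 2 values depend on the gene lengths divided by, so they do not give the relative amounts of the subunits. The shift of -1.04 separated all 6 libraries, and the two-sided exact permutation p of 0.1 is the smallest that 3 against 3 libraries can give.

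Irf1 and Irf2 act on the same sites, Irf1 as an activator and Irf2 largely as its antagonist. Irf1 (ENSMUSG00000018899, chr11:53770014-53778374, plus strand) measured 9.87, 10.0 and 9.48 FPKM among libraries labelled Ad-Con, against 23.8, 26.4 and 25.2 FPKM among those labelled Ad-PDK4. The lowest of the latter was 2.38 times the highest control, and the log2 difference was 1.35 ± 0.06 (SE, 95% interval 1.22 to 1.49, limma adjusted p = 1.8e-06). Irf2 (ENSMUSG00000031627, chr8:46739732-46847458, plus strand) measured 3.11, 3.60 and 3.44 FPKM against 4.78, 4.36 and 4.51 FPKM. Its groups did not overlap either, but the lowest library labelled Ad-PDK4 was only 1.21 times the highest control. The log2 difference of Irf2 was 0.42 ± 0.09 (SE, 95% interval 0.22 to 0.62, limma adjusted p = 5.7e-03). The balance between them moved toward Irf1, from 2.84 to 5.43 times the FPKM of Irf2 (log2 ratio 1.51 ± 0.111 against 2.44 ± 0.14, SD, n = 3 each, difference 0.93, two-sided exact permutation p = 0.1, the smallest possible).

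Irf5 (ENSMUSG00000029771, chr6:29526625-29541871, plus strand), which acts downstream of Toll-like receptors on cytokine genes, measured 1.13, 1.55 and 1.25 FPKM among libraries labelled Ad-Con, against 5.86, 5.09 and 5.86 FPKM among those labelled Ad-PDK4. Reads rose from 67, 79 and 66 to 310, 259 and 376. The lowest library labelled Ad-PDK4 was 3.29 times the highest control. The log2 difference, 2.02 ± 0.13 (SE, 95% interval 1.72 to 2.32, limma adjusted p = 1.5e-05), was the largest after that of Irf7, from a low control level. Irf5 shares 14.1% of its exonic bases with Tnpo3 on the opposite strand. Tnpo3 itself measured 6.63 ± 0.518 against 6.09 ± 0.598 FPKM (SD, n = 3 each), with overlapping groups and a log2 difference of -0.12 (limma adjusted p = 0.33).

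The members of the immune lineages were barely present. Irf4 (ENSMUSG00000021356, chr13:30749226-30766976, plus strand), a factor of plasma cells and effector lymphocytes, held 2, 3 and 2 reads among libraries labelled Ad-Con, against 0, 0 and 1 among those labelled Ad-PDK4. Irf8 (ENSMUSG00000041515, chr8:120736358-120756694, plus strand), which directs monocyte and dendritic cell development, held 0, 1 and 3 reads against 3, 0 and 6. Both lay below the level required for testing, and a difference in either was not detectable at this depth. The low counts of Irf8 accompanied the absence of reads for 8 of 16 macrophage and dendritic markers. Likewise, 8 of 11 lymphoid markers were at 0 in every library. Other myeloid markers were present: beside Cd68 and Cd14, Lyz2 held 42, 30 and 40 reads against 47, 40 and 65. Csf1r, below the level required for testing, held 11, 23 and 35 reads against 56, 62 and 61. Without a filter on low values its log2 difference was 1.13 ± 0.35 and did not pass (SE, limma adjusted p = 0.063). In a bulk library, fewer cells of a type and less RNA per cell cannot be told apart.

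**Figure D2:**
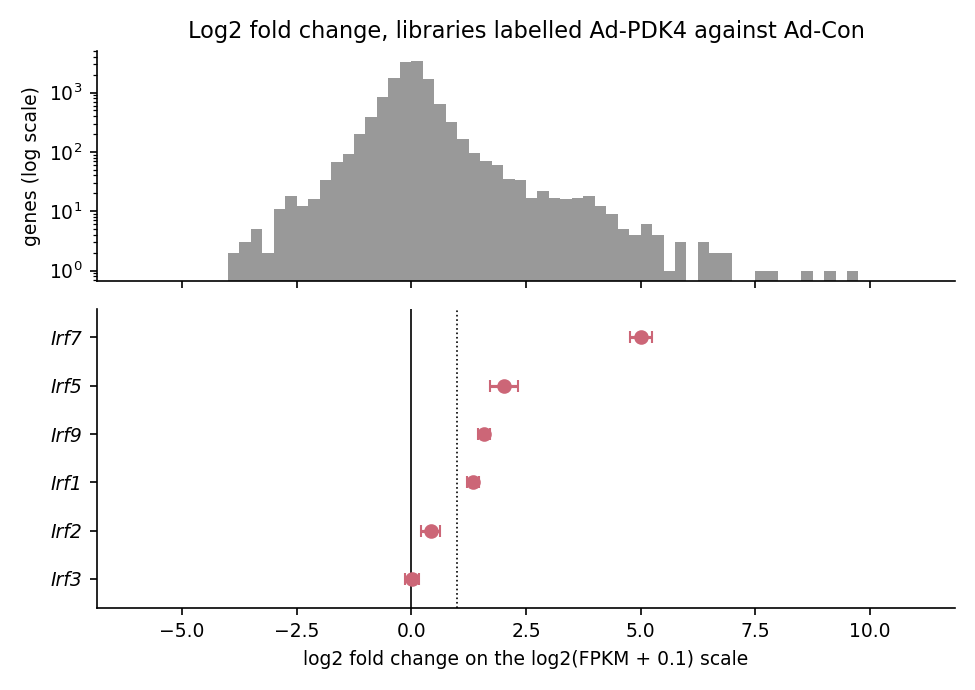
Log2 difference in FPKM, Ad-PDK4 minus Ad-Con by label, for the 6 tested IRF genes in the lower panel, with bars for the 95% interval, a solid line at 0 and a dotted line at a log2 difference of 1, and a histogram of the same difference over all 13423 tested genes in the upper panel (log axis of gene counts). Irf7 stands at 5.00, Irf5, Irf9 and Irf1 between 1.35 and 2.02, Irf2 at 0.42 and Irf3 at 0.015, where the median of all genes is -0.0031.

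The rises changed the makeup of the family. FPKM summed over the 8 members was 40.6, 42.5 and 41.7 among libraries labelled Ad-Con, against 258, 273 and 251 among those labelled Ad-PDK4. Irf7 supplied 11.8%, 14.1% and 15.1% of that sum in the controls and 70.7%, 71.9% and 69.1% in the others, a gain of 56.9 percentage points. Irf3, the member with the highest FPKM in the controls at 27.7% ± 2.01 of the sum, came to 4.47% ± 0.278 in the others (SD, n = 3 each). The shares of Irf9 and Irf1 were also smaller, 23.8% against 11.4% and 23.5% against 9.64%, although the FPKM of both genes rose. The FPKM ratio of Irf7 to Irf3, the induced factor to the constitutive one, went from 0.496 to 15.7 (difference of log2 ratios 4.98). For these shares and this ratio the 2 groups did not overlap, and the exact permutation p was 0.1, the smallest possible.

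**Figure D3:**
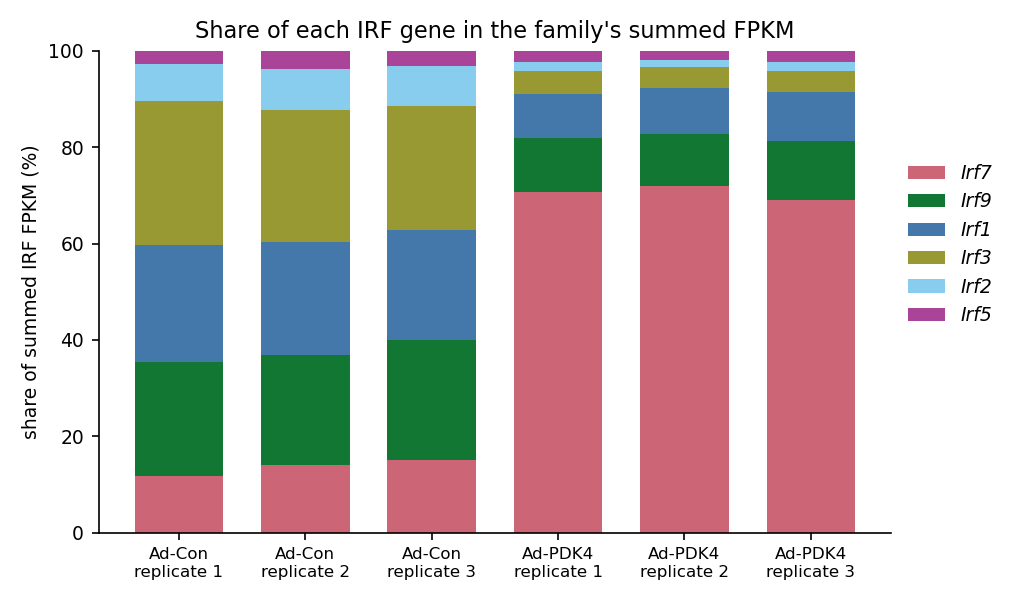
Share of each IRF gene in the FPKM summed over the 8 genes, in percent, stacked for each of the 6 libraries (Irf4 and Irf8, under 0.1% in every library, are not drawn). Irf7 fills 11.8% to 15.1% of the bar among libraries labelled Ad-Con, against 69.1% to 71.9% among those labelled Ad-PDK4.

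By mean FPKM the control order was Irf3, Irf9, Irf1, Irf7, Irf2, Irf5, Irf4 and Irf8. Neighbours in that order had separate libraries except Irf9 and Irf1 (9.88 ± 0.455 and 9.79 ± 0.279 FPKM, SD, n = 3 each) and Irf4 and Irf8. In the libraries labelled Ad-PDK4 the order was Irf7, Irf9, Irf1, Irf3, Irf5, Irf2, Irf8 and Irf4, and only the last pair overlapped. FPKM divides by gene length, and the length deposited for each member equals the merged exons of all its annotated transcripts, 1.03 times the main transcript for Irf4 but 2.96 times for Irf2. For Irf7 the merged exons, 3776 bases, cover the whole gene, since 6 of its 13 transcripts keep introns. Per kilobase of the main transcript, a scale added after the data were seen, Irf9 (21 to 22.8) and not Irf3 (18.3 to 20.5) was highest in the controls, and Irf2 and Irf5 changed places in the libraries labelled Ad-PDK4. The ratio of group means within a gene does not depend on the length used.

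Promoters of the members were read for elements through which IRF and STAT proteins act. All 8 members matched RefSeq windows of the GRCm38.p6 build (11 windows, from 250 bases before to 50 after each start). Both strands were searched for the interferon-stimulated response element written as GAAA, any 2 bases and GAAA again, the gamma-activated site (GAS) of STAT proteins written as TTCNNNGAA, and the NF-κB consensus. Of 32851 promoter windows in the genome, 3.44% held the first, 8.3% the second and 4.51% the third. Among the members the response element was found in Irf2 alone, the gamma-activated site in Irf1, Irf2 and Irf8, and the NF-κB consensus in Irf1 and Irf2. The 250 bases before the start are printed for the 3 members with a match and for Irf7, the member with the largest rise, which had none. Capitals mark matches, and each sequence runs 5′ to 3′ on the gene's strand.
Irf1, chr11:53769764-53770013, plus strand: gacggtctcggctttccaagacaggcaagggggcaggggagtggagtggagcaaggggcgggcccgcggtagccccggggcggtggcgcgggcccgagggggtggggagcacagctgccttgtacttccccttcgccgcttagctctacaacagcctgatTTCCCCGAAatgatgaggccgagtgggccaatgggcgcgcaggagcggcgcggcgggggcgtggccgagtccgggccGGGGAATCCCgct
Irf2, chr8:46739495-46739744, plus strand: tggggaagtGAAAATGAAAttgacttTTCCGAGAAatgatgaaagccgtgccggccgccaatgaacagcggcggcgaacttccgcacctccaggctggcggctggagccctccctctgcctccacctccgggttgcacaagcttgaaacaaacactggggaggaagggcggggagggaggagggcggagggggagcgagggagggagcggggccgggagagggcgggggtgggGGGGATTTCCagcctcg
Irf7, chr7:141266425-141266674, minus strand: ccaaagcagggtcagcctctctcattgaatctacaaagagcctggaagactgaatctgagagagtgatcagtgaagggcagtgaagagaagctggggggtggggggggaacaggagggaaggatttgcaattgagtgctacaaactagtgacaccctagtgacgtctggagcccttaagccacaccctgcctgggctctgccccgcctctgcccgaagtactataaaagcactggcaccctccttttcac
Irf8, chr8:120736108-120736357, plus strand: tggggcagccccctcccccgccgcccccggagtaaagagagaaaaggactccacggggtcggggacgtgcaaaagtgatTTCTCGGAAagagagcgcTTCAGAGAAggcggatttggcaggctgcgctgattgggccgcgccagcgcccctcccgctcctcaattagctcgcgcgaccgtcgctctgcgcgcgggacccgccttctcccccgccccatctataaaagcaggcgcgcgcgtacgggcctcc

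In Irf1, the gamma-activated site TTCCCCGAA lay 90 to 82 bases before the start and the NF-κB match GGGGAATCCC 13 to 4 bases before it. In Irf2 the response element GAAAATGAAA lay 241 to 232 bases before the start, followed by a gamma-activated site and, next to the start, the NF-κB match GGGGATTTCC. Irf8 held 2 gamma-activated sites, TTCTCGGAA and TTCAGAGAA, although its transcript was barely detected in either group. The windows of Irf3, Irf4, Irf5, Irf7 and Irf9 held none of these letters. Both Irf9 windows began after the gene's annotated start, so the bases before that start were not searched. Among the members that rose, Irf1 and Irf2 held a match and Irf5, Irf7 and Irf9 did not. Irf3 was the only tested member that did not pass, and Irf4 and Irf8 were too low to compare. Whether a match goes with a rise therefore cannot be read from these members. A match is a run of letters and not a measured binding site, and no match says only that these letters are missing from the window.

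The interferon genes themselves, including those that IRF3 and IRF7 transcribe, were nearly silent. Of 21 type I, II and III interferon genes, 17 held no read in any library and 19 never exceeded 3 reads. Ifnb1, the first interferon gene that IRF3 switches on, held 0 reads in each of 3 libraries labelled Ad-Con, against 7, 5 and 5 reads among those labelled Ad-PDK4. Taking 3 reads per control library as the floor, it was at least 1.85-fold higher. Ifna5 was the only interferon-α gene with any read, a single one in a library labelled Ad-PDK4. The libraries labelled Ad-PDK4 held high Irf7 mRNA and almost no interferon-α mRNA, the gene class that IRF7 is known for.

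Upstream of the IRFs, 14 of 24 tested sensors, adaptors and kinases were higher in the libraries labelled Ad-PDK4, 1 was lower and 9 passed in neither direction. Their median log2 difference was 0.36. Over all tested genes 21.8% were higher and 20.8% lower, with a median of -0.0031. The largest rises were those of Zbp1, a sensor of Z-form nucleic acid, from 0.710 ± 0.145 to 61.1 ± 4.70 FPKM (log2 difference 6.25, and 5.18 to 6.45 across alternatives), and of the RIG-I-like receptors Dhx58 and Ifih1, at log2 differences of 3.92 ± 0.14 and 2.77 ± 0.07 (SE). The kinases that phosphorylate IRF3 and IRF7 moved little beside these: Tbk1 rose by a log2 difference of 0.38 ± 0.06 (limma adjusted p = 1.2e-03) and Ikbke by 0.69 ± 0.07 (limma adjusted p = 1.7e-04). Mavs, the mitochondrial adaptor through which RIG-I-like receptors reach them, measured 18.3 ± 0.443 against 19.5 ± 0.997 FPKM (limma adjusted p = 0.25). Myd88, the adaptor through which Toll-like receptors reach IRF5 and IRF7, rose from 10.2 ± 0.699 to 17.5 ± 1.42 FPKM (SD, n = 3 each). Irak4, a kinase of the Myd88 complex, was the only gene of the pathway lists that fell (log2 difference -0.29, limma adjusted p = 9.3e-03).

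At the receptor end, 5 of 9 receptor, Janus kinase and STAT genes were higher and 0 lower, with a median log2 difference of 0.36. Of all tested genes 21.8% were higher and 20.8% lower. Ifnar1 measured 12.6 ± 0.537 against 13.0 ± 0.629 FPKM, while Ifnar2, the other chain of the type I interferon receptor, rose from 9.33 ± 0.189 to 21.9 ± 0.463 FPKM (SD, n = 3 each). Among 5 tested partner proteins of IRFs, 2 were higher and 0 lower, with a median of 0.15. These are too few genes to be set apart from the share of all tested genes. Irf2bpl rose by 0.51 ± 0.09 and the acetyltransferase Ep300 by 0.27 ± 0.06 (log2, SE), whereas the IRF2 corepressors Irf2bp1 and Irf2bp2 had log2 differences of -0.033 and -0.13 that did not pass (limma adjusted p = 0.74 and 0.17). The sign of Irf2bp1 turned when values were rescaled to TPM (0.0075).

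Of 13 inhibitors of IRF and interferon signalling, all tested, 10 were higher and 0 lower, with a median log2 difference of 0.75. Over all tested genes 21.8% were higher and 20.8% lower. The largest rises were those of Trim30a (3.46 ± 0.13), the ubiquitin-like protease Usp18, which blocks the type I receptor (2.47 ± 0.05), and Trim21, a ubiquitin ligase that binds several IRFs (2.19 ± 0.08, log2, SE). Genes that activate the pathway and genes that restrain it were higher in the same libraries.

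Known targets of single members were read beside the members and beside all tested genes, of which 21.8% were higher and 20.8% lower. All 9 early targets of IRF3 were higher, with a median log2 difference of 4.89, although Irf3 mRNA did not pass the test. Among them the chemokine genes Ccl5 and Cxcl10 rose from 0.766 ± 0.334 to 602 ± 24.6 FPKM and from 0.137 ± 0.0457 to 51.7 ± 10.0 FPKM, and the antiviral gene Rsad2 from 1.76 ± 0.767 to 80.6 ± 9.52 FPKM (SD, n = 3 each). Of 15 tested ISGF3 targets, 14 were higher and 0 lower, with a median of 3.04. The largest were Ifi44 (6.51 ± 0.16), the mitochondrial nucleotide kinase Cmpk2 (5.22 ± 0.15) and Oas2, a synthase of 2-5A (4.52 ± 0.10, log2, SE), and Ifi27 alone did not pass. Cxcl10 and Ifi44, and Mx1 of the second list, averaged under 0.5 FPKM in the controls and entered the fit only through the other group. Without them 8 of 8 IRF3 targets and 12 of 13 ISGF3 targets were higher, with medians of 4.45 and 3.02. The size of the rise of such low genes depends on the pseudocount and scaling: across alternatives the log2 difference ran from 8.43 to 9.80 for Ccl5, 5.52 to 8.50 for Cxcl10, 4.92 to 5.82 for Rsad2, 4.65 to 7.04 for Ifi44 and 3.69 to 4.65 for Oas2.

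Of 15 tested IRF1 targets, 13 were higher and 0 lower, with a median log2 difference of 1.94, where 21.8% of all tested genes were higher. The immunoproteasome subunit Psmb8 rose by 4.52 ± 0.11, the MHC class I transactivator Nlrc5 by 3.67 ± 0.15 and the GTPase Gbp2 by 3.27 ± 0.08 (log2, SE). Nlrc5 (0.258 ± 0.0376 against 4.46 ± 0.248 FPKM, log2 difference 2.12 to 4.11 across alternatives) and Il15ra entered the fit only through the higher group, and without them 12 of 13 were higher. Of 6 cytokine genes listed as targets of IRF5, only Il6 reached the level required for testing, and only through the libraries labelled Ad-PDK4. It held 4, 1 and 2 reads in the controls and 114, 89 and 210 in the others, and its fitted log2 difference of 4.28 ran from 1.85 to 5.65 across alternatives. Il12a held 2, 3 and 6 reads against 0, 2 and 1, and Il23a 6, 0 and 1 against 1, 0 and 2. Il12b and Il1b held no read in any library, and Tnf held 2 reads in 1 library. Several listed targets answer to more than one IRF, so these counts do not assign a gene to a member.

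**Figure D4:**
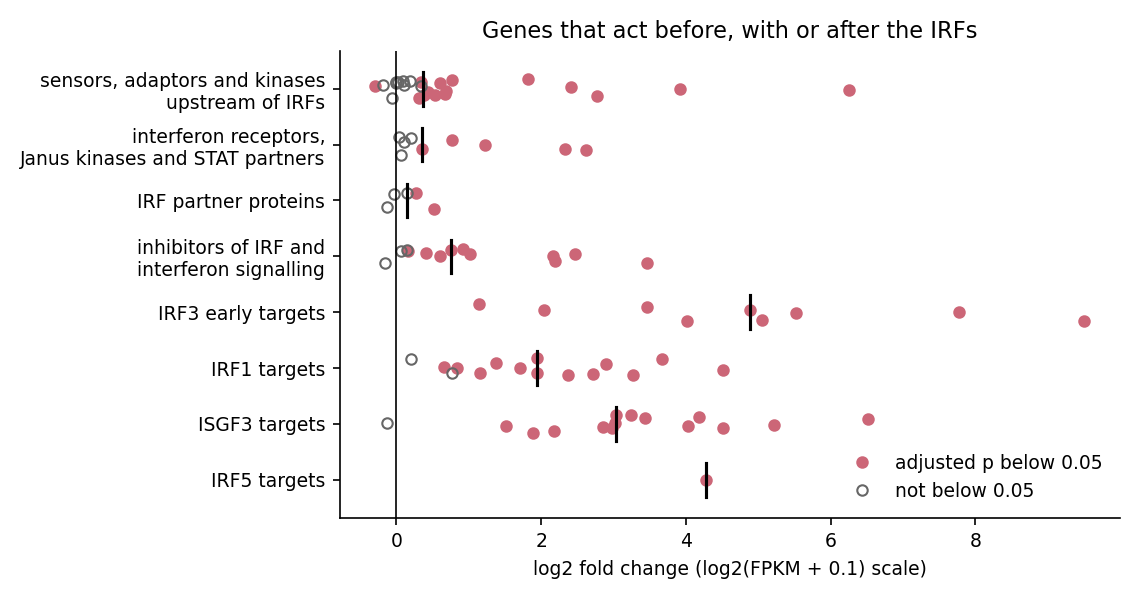
Log2 difference in FPKM, Ad-PDK4 minus Ad-Con by label, of each tested gene in the lists of genes that act before, with or after the IRFs, with 1 point per gene and a line at each list's median. The medians run from 0.15 for IRF partner proteins to 4.89 for early IRF3 targets.

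The 8 members lie on 6 chromosomes, and the genes beside them were read to see whether whole neighbourhoods moved. Around Irf7, which rose by 5.00, the overlapping gene Phrf1 had a log2 difference of 0.32 and Rassf7 of 1.18 (limma adjusted p = 0.011 and 2.9e-04), while Cdhr5 held no read. Beside Irf9, Rnf31, a subunit of the linear ubiquitin ligase, whose end overlaps it on the same strand, rose by 0.83, and Psme2, an interferon-inducible proteasome activator, by 0.84 (limma adjusted p = 2.6e-05 and 2.5e-03). Gm12216, next to Irf1, measured 0.15 ± 0.0517 against 0.929 ± 0.0740 FPKM, entered the fit only through the latter group, and had a log2 difference of 2.06 that ran from 0.75 to 2.62 across alternatives. Beside Irf3, neither Bcl2l12, Prmt1 nor Scaf1 passed (limma adjusted p = 0.17, 0.84 and 0.29). Apart from Irf5, members shared at most 3.40% of their exonic bases with another gene. No 50-base stretch of a member's transcripts occurred in another IRF gene.

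**Figure D5:**
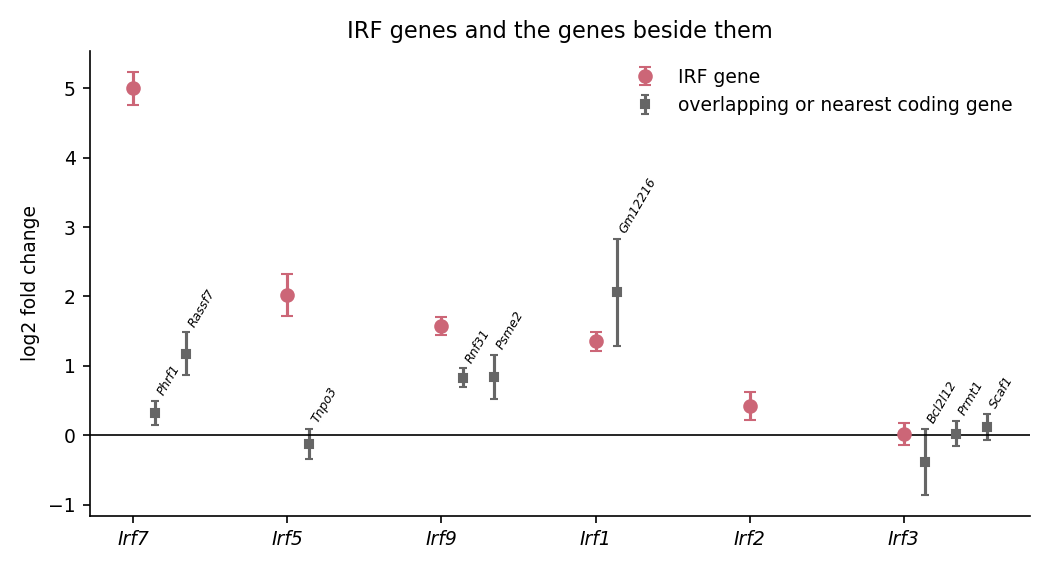
Log2 difference in FPKM, Ad-PDK4 minus Ad-Con by label, of the tested IRF genes and of tested genes that overlap them or are the nearest coding gene on a side, with bars for the 95% interval. The tested neighbours of Irf7, Irf9 and Irf1 range from 0.32 to 2.06, and those of Irf3 have intervals that include 0.

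Genes with the profile most like each member across the 6 libraries were found by Euclidean distance between centred log2 values. Nearest to Irf7 were Isg15, a ubiquitin-like modifier, at 0.307, the MHC class I gene H2-Q4 at 0.352 and Cmpk2 at 0.433. For Irf5 they were the interferon-inducible GTPase gene 9930111J21Rik2, the matrix gene Svep1 and the MHC class I light chain B2m, at 0.155 to 0.265. Irf9 lay nearest to the pseudogene Gm6548, Vgll3 and Bmper, and Irf1 to Thbs1, Nectin2 and Mark1, at 0.0887 to 0.132. Irf2 lay nearest to Asah2, Kdm5a and Mdfic, and Irf3 to Eya4, Cib1 and Cdk10. The distance includes the difference between groups, so genes with a similar rise lie close.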

How the data were processed

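Libraries were grouped by their treatment labels, 3 per group. Per the file headers the deposited values are FPKM per gene, made by the authors, each divided by a gene length that the table also gives. The submitters' processing notes name CASAVA 1.8, fastp, HISAT2 2.0.5, featureCounts 1.5.0-p3 and DESeq2 1.20.0, with build GRCm39, whereas 98.3% of 54409 matched genes, and all 8 members, carry the GRCm38 coordinates of GENCODE M21. The labels name a SMARTER library kit and the study's methods a NEBNext Ultra kit, and whether strand was used in counting is not given in the sources used here. Every sample column was mapped to a sample (0 left unmapped). Multiplied back by gene length, the deposited FPKM gave whole reads for 100% of values (tolerance 0.01 reads), which are the reads quoted, 17588942 to 21861872 per library.

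After adding 0.1 to each FPKM and taking log2, the groups were compared by limma 3.58.1 (R 4.3.3; trend and robust moderation, no covariate) over the 13423 genes averaging 0.5 FPKM or more, with Benjamini-Hochberg adjustment. The pseudocount understates the change of low genes. A call needed an adjusted p under 0.05, and where stated a fold of at least 2.. Shares and ratios within a library were compared by two-sided exact permutation over 20 arrangements. Intervals and floors (3 reads) cover counting or replicate error only. Replicates differed beyond counting noise (chi-square per degree of freedom 4.17 to 11.7), so none was a copy of another's reads. This does not show that they came from separate cultures. The scripts were tested on simulated data. The genes named were the members, Pdk4, fixed partners, the 3 largest rises and falls of each list, neighbours and the 3 most similar profiles. How the lists read without genes that were under the filter in the controls was added after the data were seen. A few genes that this rule names are not reported here. Members and lists were chosen with earlier results of these data known. Alternatives covered pseudocount, filter, scaling, moderation, limma-voom, the replicate block and leaving out each library.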

Additional observations from a re-analysis of the deposited data

How the results depend on the processing

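Across the alternatives tried, Irf7 (log2 difference 4.80 to 5.07), Irf5 (1.52 to 2.14), Irf9 (1.5 to 1.62), Irf1 (1.28 to 1.39) and Irf2 (0.34 to 0.46) kept their direction and passed wherever they could be tested (largest adjusted p 0.027, Irf2). A minimum mean of 5 FPKM left out Irf2 and Irf5, so 3 members instead of 5 passed, and 372 instead of 890 genes overall passed with a fold of at least 2. A pseudocount of 1 gave 514, since it shrinks the fold of low genes. Leaving out 1 library gave 864 to 928. Irf3 was -0.051 under quantile normalization and spanned -0.032 to 0.052 when 1 library was left out, negative without Ad-Con replicate 3 (-0.032) or Ad-PDK4 replicate 1 (-0.025). None of its values passed. Ifnar1 turned to -0.029 under quantile normalization and Irf2bp1 to 0.0075 as TPM and 0.032 without Ad-Con replicate 1 (range with 1 library left out -0.10 to 0.032). Prmt1 turned to -0.038 under quantile normalization and ranged from -0.054 to 0.095 with 1 library left out, negative without replicate 2 of either group. Bcl2l12 passed without Ad-PDK4 replicate 2 (-0.62, adjusted p = 0.011). The cause was not tested. Of 679 values for 43 named genes outside the family, 672 kept their direction and side of the threshold. Shares and ratios kept their direction: the Irf7 share differed by 56.0 to 57.6 points, and the log2 ratios of Irf7 to Irf3, Irf1 to Irf2 and Irf9 to Stat2 by 4.78 to 5.11, 0.87 to 1.01 and -1.08 to -1.0. Rescaling to TPM moved the median of all genes to 0.037 and quantile normalization to -0.035. With the replicate number as a block, 883 genes passed with the fold and 5 members passed; same-numbered libraries did not deviate together (r = -0.0460, -0.0311 and -0.00129), so the numbers pair nothing here. Depth limits Irf4, Irf8 and the interferon genes. Apart from Ifnb1, for which only a lower bound is given, these held too few reads to compare.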

Other observations

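Among the partners of IRFs below the level required for testing, the lymphoid Ets factor Spib and the AP-1 factor Batf2 stood out after their values were seen. Spib, a partner of IRF4 and IRF8 in lymphoid cells, held 7, 3 and 10 reads among libraries labelled Ad-Con, against 42, 31 and 62 among those labelled Ad-PDK4. Without a filter on low values its log2 difference was 2.03 ± 0.31 (SE, limma adjusted p = 4.4e-03). Batf2, an interferon-inducible partner of IRF1, held 0, 3 and 0 reads against 6, 11 and 7, a log2 difference of 1.15 ± 0.36 that did not pass (limma adjusted p = 0.070). Spi1, the myeloid relative of Spib and the usual partner of IRF8, held 1, 5 and 1 reads against 1, 0 and 1.

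Nos2, the inducible nitric oxide synthase and a target of IRF1, held 0 reads in every library labelled Ad-Con, against 59, 44 and 84 among those labelled Ad-PDK4. Against a floor of 3 reads per control library it was at least 19.8-fold higher. Ciita, the MHC class II transactivator and another IRF1 target, held 12, 5 and 0 reads against 1, 0 and 2, with overlapping groups.

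Among markers of other cells, Cd68 fell by 1.74 on the log2 scale and Cd14 rose by 0.55 (limma adjusted p = 4.4e-04 and 2.7e-04), both also made by cells outside the myeloid lineage. The summed FPKM of the 16 macrophage and dendritic markers ran from 28.8 to 31.9 among libraries labelled Ad-Con, against from 25.4 to 28.2 among those labelled Ad-PDK4. Most of that sum was Cd68 and Cd14. The summed FPKM of 6 endothelial markers was 0.617 to 0.798 against 0.885 to 1.18, with Tie1 at 0 throughout. Most of that sum was Kdr (0.536 ± 0.110 against 0.919 ± 0.199 FPKM, SD, n = 3 each, limma adjusted p = 0.065), and the means of Pecam1 (0.101 against 0.0651) and Vwf (0.0585 against 0.0327) were lower. That of 11 lymphoid markers was 0.0654 to 0.366 against 0.0715 to 0.185. The 6 fibroblast markers summed to 1302 to 1416 against 666 to 728. Most of that was Col1a1 (1056 ± 42.4 against 435 ± 49.5 FPKM, SD, n = 3 each). Of the 5 tested fibroblast markers 3 were lower, namely Col1a1, Dpt and Lum. Their log2 differences were -1.28, -1.36 and -1.16 (limma adjusted p = 1.3e-05, 7.1e-06 and 4.6e-04). Dcn rose (90.1 ± 8.20 against 161 ± 19.0 FPKM, SD, n = 3 each, limma adjusted p = 4.0e-04), and Pdgfra had a log2 difference of -0.046 (limma adjusted p = 0.54). The 11 smooth muscle markers summed to 172 to 173 against 135 to 145, with Acta2 and Tpm2 lower, Cald1 higher (log2 difference 0.36, limma adjusted p = 6.6e-04) and Smtn at 0.018 (limma adjusted p = 0.84). Mylk, below the level required for testing, held 188, 168 and 122 reads against 27, 28 and 24. Without a filter on low values its log2 difference was -1.93 ± 0.25 (SE, limma adjusted p = 2.0e-03). Cnn1 and Des also lay below every control, on few reads, and Cnn1 did not pass without that filter (limma adjusted p = 0.12). The part of these markers in the IRF differences was not tested.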
